A study of Mus musculus with 9 samples.

Results

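The Id genes and the core of the BMP pathway were followed across mouse liver tumors as 9 genes listed by symbol: Id1, Id2, Id3, Id4, Bmp2, Bmp4, Bmpr1a, Bmpr2 and Acvr1. All 9 were found among the 24421 gene symbols measured, and all 9 passed the filter on low values. The tumors came from C57BL/6 mice aged 11 weeks, in the groups S7HP+Snail (tumors 13, 14 and 15), S7HP (tumors 9, 11 and 12) and LHP (tumors 2, 3 and 6). The column headers tie S7HP to a Smad7 construct, S7HP+Snail to the same construct with Snail, and LHP to a Luc construct in place of Smad7. Smad7 itself was at 7.31, 6.77 and 8 in S7HP+Snail, 6.46, 6.81 and 6.28 in S7HP, and 10.23, 10.50 and 9.49 in LHP, and so highest in LHP. Snai1, the Snail gene, was at 8.53, 7.31 and 8.47 in S7HP+Snail, 6.17, 6.34 and 6.92 in S7HP, and 9.93, 11.16 and 10.99 in LHP, again highest in LHP. Whether 3′ tags of the constructs are counted at these symbols is not given, so these levels do not check the labels. The letters HP are common to the 3 groups and are not spelled out in the labels, which also do not say how the constructs were delivered or whether the tumors of a group came from separate animals. The p-values therefore measure the spread between these tumors. Albumin, the main hepatocyte marker, was detected in each tumor, at log2 values from 12.98 to 17.32.

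Bone morphogenetic proteins (BMPs) are secreted ligands of the TGF-β family. They bring together type II receptors, such as the one encoded by Bmpr2, and type I receptors, such as those encoded by Bmpr1a (ALK3) and Acvr1 (ALK2), which phosphorylate Smad1, Smad5 and Smad9. These Smads pair with Smad4 and switch on target genes, of which the Id genes are the best known in many cell types. In liver the same route controls hepcidin, the hormone of iron balance. Id proteins have a helix-loop-helix domain but no DNA-binding region, and they hold E proteins such as Tcf3, Tcf4 and Tcf12 away from DNA. Smad7, the inhibitory Smad of the S7HP construct, blocks type I receptors of both the TGF-β and the BMP branch.

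Start-site windows of 4 genes are shown because the Id genes moved in opposite directions between the groups and because Bmp4 was highest in a pair of the S7HP+Snail tumors, Snail being a factor that binds the letters CAGGTG. They are RefSeq windows on GRCm38.p6 of 300 bases, 5′ to 3′ on the gene's strand. Of the 9 genes, 7 had one, and Id1 and Bmp2 had none, so the fall of Id1 has no window beside it. Capitals mark the 3 motifs searched on both strands: CAGGTG, the GC-rich Smad1 and Smad5 motif GGCGCC, and the Smad-box letters CAGAC. No motif lies within another. The windows lie at chr12:25096043-25096342 (minus strand), chr4:136143572-136143871 (plus strand), chr13:48260866-48261165 (plus strand) and chr14:46390620-46390919 (minus strand). By the GENCODE gene coordinates given below, the windows of Id2 and Id3 lie wholly within the gene. So do the windows of Bmpr1a, Bmpr2 and Acvr1, which are not printed. These windows may therefore not hold the start used by those gene models.
Id2: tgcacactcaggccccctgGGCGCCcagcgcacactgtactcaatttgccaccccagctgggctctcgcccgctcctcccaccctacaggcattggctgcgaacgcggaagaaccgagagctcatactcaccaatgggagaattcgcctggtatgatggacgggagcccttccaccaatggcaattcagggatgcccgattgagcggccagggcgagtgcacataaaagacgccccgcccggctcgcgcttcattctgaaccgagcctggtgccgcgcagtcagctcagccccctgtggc
Id3: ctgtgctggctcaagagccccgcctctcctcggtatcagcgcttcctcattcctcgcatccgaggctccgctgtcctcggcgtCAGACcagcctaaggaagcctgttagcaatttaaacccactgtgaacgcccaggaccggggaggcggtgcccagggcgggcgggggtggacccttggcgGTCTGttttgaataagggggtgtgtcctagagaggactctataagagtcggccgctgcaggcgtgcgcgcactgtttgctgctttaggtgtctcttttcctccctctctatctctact
Id4: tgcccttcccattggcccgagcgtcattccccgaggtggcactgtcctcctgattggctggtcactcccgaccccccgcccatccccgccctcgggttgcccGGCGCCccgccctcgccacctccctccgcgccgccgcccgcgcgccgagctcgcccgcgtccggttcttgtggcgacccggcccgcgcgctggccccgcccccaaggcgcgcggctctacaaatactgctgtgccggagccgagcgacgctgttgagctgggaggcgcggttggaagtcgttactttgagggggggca
Bmp4: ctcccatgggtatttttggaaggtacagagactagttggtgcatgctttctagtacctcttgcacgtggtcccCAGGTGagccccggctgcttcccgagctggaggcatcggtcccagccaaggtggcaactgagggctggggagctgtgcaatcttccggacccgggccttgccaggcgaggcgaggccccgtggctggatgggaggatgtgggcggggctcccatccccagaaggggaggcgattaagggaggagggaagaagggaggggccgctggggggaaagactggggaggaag

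Counted from 1 at the 5′ end of its window, GGCGCC began at base 20 for Id2 and at base 103 for Id4. Id3 held CAGAC at base 84 and its reverse complement GTCTG at base 183. Bmp4 held CAGGTG at base 74, and was the only 1 of the 7 windows with it. Of the windows not printed, those of Bmpr1a and Bmpr2 held GGCGCC at bases 53 and 146, and that of Acvr1 held none of the 3 motifs. Among all 32851 windows of the same length, CAGGTG was present in 20.2%, GGCGCC in 11.9% and CAGAC in 49.6%. The 7 windows had a GC content of 59.3% to 83.7%, against a median of 52.7% over all windows, and the part of GC content in the matches to GGCGCC, a motif of G and C alone, was not tested. These matches describe letters and do not show binding. Bmp4 was lowest in LHP, where Snai1 was highest. In S7HP+Snail, each tumor had more Snai1 than each S7HP tumor, and mean Bmp4 was also higher, at 8.46 against 7.29, with overlap. The part of Snail in the Bmp4 level was not tested.

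Levels are given as log2(normalized count + 1), from 3′ tags that yield about 1 read per transcript whatever its length, so levels of different genes can be set side by side. Id2 was the most abundant member, with a mean over the 9 tumors of 12.22, above 96.8% of the 19417 detected genes. Id1 followed at 11.06 and Id3 and Acvr1 at 10.09 each. Bmpr2 (9.58), Bmp2 (9.20), Bmpr1a (8.48), Bmp4 (6.77) and Id4 (4.96) came below them. Apart from the steps between Id2 and Id1, Bmpr1a and Bmp4, and Bmp4 and Id4, neighbours in this order were less than 1 log2 unit apart, and their ranges over the tumors overlapped.

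In S7HP against LHP, 6 of the 9 genes passed the test, 1 higher and 5 lower. Id2 rose, and Id1, Id3, Bmp2, Bmpr2 and Acvr1 fell, by between 2.51-fold and 5.79-fold. Over all 14215 genes tested the share called in this comparison was 19%, with 9.47% higher and 9.54% lower. The median log2 difference was -1.37 over the 9 genes and 0.02 over all genes tested. For 8 of the 9 genes, Bmpr1a being the exception, the S7HP and LHP tumors had no overlap, as for 42.1% of all genes. A gene was called when its limma Benjamini-Hochberg adjusted p, over all genes tested, was under 0.05.

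**Figure D1:**
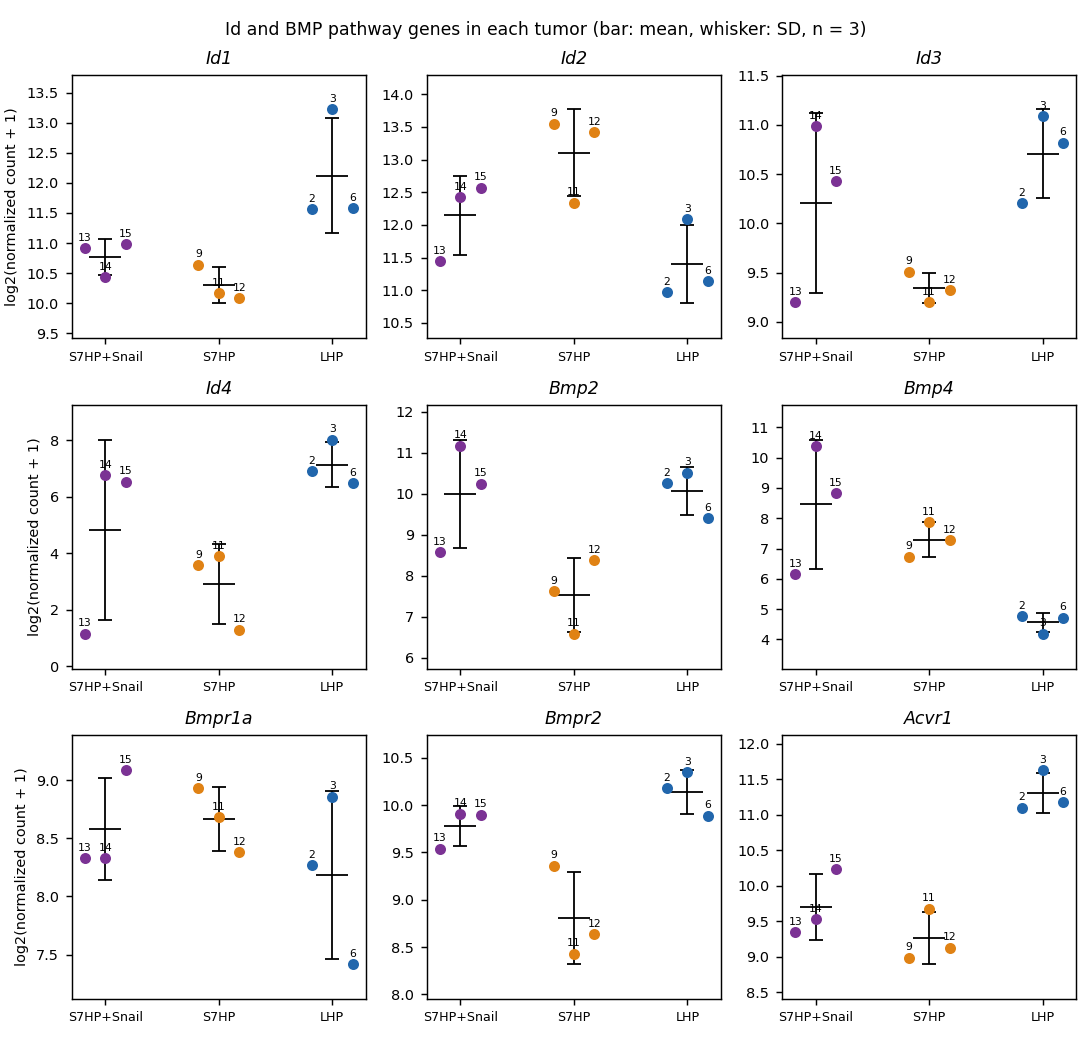
Log2(normalized count + 1) of each gene, with 1 point per tumor labelled by its number, the group mean as a bar and the SD as whiskers (n = 3 tumors a group). S7HP tumors lie above LHP tumors for Id2 and Bmp4 and below them for Id1, Id3, Id4, Bmp2, Bmpr2 and Acvr1, while S7HP+Snail tumor 13 stands below tumors 14 and 15 for Id3, Id4, Bmp2 and Bmp4.

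In bulk tumors, fewer cells of a type and less RNA per cell cannot be told apart, and markers of other cell types moved in the same comparisons. The summed level of 9 stellate cell and fibroblast markers was 14500 to 21400 normalized counts in S7HP+Snail, 6980 to 10900 in S7HP and 39600 to 52400 in LHP, without overlap. In S7HP against LHP, 5 of the 9 were called lower and 0 higher, against 9.54% lower and 9.47% higher of all genes. At an unadjusted p under 0.05, 6 were lower and 1 was higher. The higher marker was Reln, which lay above LHP without overlap and without a call, at 1.99. The sum of 8 hepatocyte markers was 76000 to 184000 in S7HP+Snail, 92900 to 301000 in S7HP and 22700 to 39500 in LHP, and 4 of the 8 rose in S7HP against LHP. The sum of 10 endothelial markers was 4750 to 7140 in S7HP+Snail, 3850 to 7140 in S7HP and 4900 to 7000 in LHP. Eng held a large part of these sums, as in S7HP tumor 9 with 4410 of 7140. By limma, 0 of the 10 were called in S7HP against LHP and 2 were lower at an unadjusted p under 0.05. In S7HP+Snail against S7HP, where Bmp2 and Bmpr2 were higher without overlap, 0 of the 10 were called by limma. At an unadjusted p under 0.05, 4 were higher (Pecam1, Cdh5, Kdr and Emcn). Groups did not overlap for 3 of the 10, against 20.5% of all genes. The median difference was 0.82, against -0.02 over all genes, while Eng was at -0.50. Macrophage marker sums were 2880 to 4590 in S7HP+Snail, 2020 to 3520 in S7HP and 3390 to 4040 in LHP. Of the 8 markers, 2 were called lower and 0 higher in S7HP against LHP, where 19% of all genes were called. Cholangiocyte marker sums overlapped between all groups. In S7HP against LHP, 1 of these 5 markers fell, Sox9, while Krt7, Krt19 and Epcam lay above LHP without overlap and without a call, at 4, 2.13 and 2.20, and the median of the 5 was 2.13. No marker of these 5 lists was at 0 in any tumor. The part of cell make-up in the results for the Id and BMP genes was not tested.

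Id1 (GRCm38 chromosome 2, 152736251 to 152737410) encodes an Id protein that responds early to BMP signals in endothelial and liver cells. Its log2 values were 10.91, 10.43 and 10.98 in S7HP+Snail tumors 13, 14 and 15, 10.64, 10.17 and 10.08 in S7HP tumors 9, 11 and 12, and 11.56, 13.22 and 11.58 in LHP tumors 2, 3 and 6. Each tumor with the Smad7 construct was below each LHP tumor, and LHP tumor 3 was the highest by more than 1 log2 unit. Against LHP, Id1 fell by 1.82 ± 0.42 (SE) in S7HP, which is 3.54-fold lower (limma, Benjamini-Hochberg adjusted p = 0.0163). The call was lost without S7HP tumor 11 (adjusted p = 0.0544). Without LHP tumor 3 the difference was -1.27 and the call was kept. In S7HP+Snail the difference from LHP was -1.35 ± 0.42 and did not pass (adjusted p = 0.0855).

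Id2 (chromosome 12, 25093799 to 25097140), known also as a factor that innate lymphoid cells and NK cells need, went the other way. It stood at 11.45, 12.42 and 12.57 in S7HP+Snail, at 13.55, 12.34 and 13.42 in S7HP, and at 10.97, 12.09 and 11.14 in LHP. All S7HP tumors were above all LHP tumors, though S7HP tumor 11 and LHP tumor 3 lay only a little apart, and the S7HP+Snail tumors overlapped both groups. Id2 rose by 1.70 ± 0.43 in S7HP against LHP, or 3.25-fold (limma, Benjamini-Hochberg adjusted p = 0.0246). This call did not survive leaving out S7HP tumor 9 or 12 or LHP tumor 2 or 6 (adjusted p = 0.085, 0.072, 0.0828 and 0.0874). Lymphoid markers were low in all tumors, with summed levels of 57.4 to 337 normalized counts in S7HP+Snail, 108 to 231 in S7HP and 8.89 to 152 in LHP, and 4 of the 9 markers passed the filter. Ncr1, a marker of NK cells, was listed at 0 in 6 of 9 tumors. In S7HP against LHP, 0 of the 4 were called by limma, and their median difference was 1.58, against 0.02 over all genes. For S7HP+Snail against S7HP, 0 were called and the median was -1.26, against -0.02 over all genes. Both medians have the sign of the Id2 difference. The part of lymphoid cells in the Id2 level was not tested.

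Id3 (chromosome 4, 136143497 to 136145755) moved with Id1 in S7HP but was uneven in S7HP+Snail. Its values were 9.20, 10.99 and 10.43 in S7HP+Snail, 9.51, 9.20 and 9.32 in S7HP, and 10.21, 11.09 and 10.82 in LHP. The 3 S7HP tumors lay close together and below all LHP tumors, while tumor 13 was at the S7HP level and tumors 14 and 15 were in the LHP range. The fall of Id3 by 1.37 ± 0.42 in S7HP, 2.58-fold, stood just under the threshold (limma, Benjamini-Hochberg adjusted p = 0.0478). It no longer passed without any 1 LHP or S7HP tumor or without S7HP+Snail tumor 15, at adjusted p from 0.0534 to 0.15, nor with no filter (0.063) or without trended and robust variances (0.072).

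Id4 (chromosome 13, 48261228 to 48266026) was the least abundant Id gene. It was at 1.15, 6.77 and 6.54 in S7HP+Snail, 3.58, 3.90 and 1.29 in S7HP, and 6.91, 8.03 and 6.49 in LHP. In S7HP tumor 12 and S7HP+Snail tumor 13 it sat on the 2nd lowest value above 0 of those libraries. S7HP+Snail tumors 14 and 15 were within the range of the LHP tumors. The difference of S7HP from LHP, at -4.22 ± 1.39 (95% interval -7.33 to -1.11), did not pass (limma, Benjamini-Hochberg adjusted p = 0.061). It passed without S7HP+Snail tumor 13 or 14 (0.00646 and 0.0405), with the 6 compared tumors alone (0.00619), with array weights (0.0223) and with a pseudocount of 8, where it was -3.24 (0.0326). The antisense gene A330033J07Rik, which overlaps the start of Id4, was listed at 0 in all 9 tumors.

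The 4 genes together held 5308 to 9557 normalized counts in S7HP+Snail, 6928 to 14300 in S7HP and 6324 to 16360 in LHP, ranges that overlapped. What differed was their make-up. Id2 made up 52.7%, 60.8% and 63.6% of these counts in S7HP+Snail, 83.7%, 74.7% and 86.4% in S7HP, and 31.8%, 26.7% and 31.3% in LHP, so the 3 groups did not overlap. Its mean share was 59% ± 5.66 in S7HP+Snail, 81.6% ± 6.13 in S7HP and 29.9% ± 2.81 in LHP (SD, n = 3 each). The exact two-sided permutation p was 0.1 for each of the 3 pairs of groups, which is the smallest that 3 tumors against 3 allow. Id1 held 15.4% to 36.2% in S7HP+Snail and 8.51% to 16.6% in S7HP, against 42.3% to 58.4% in LHP, where it was the largest part. Since the share is formed within a tumor, it does not change when a library is rescaled as a whole. The quantile normalization of these values is not such a rescaling and can change the share.

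**Figure D2:**
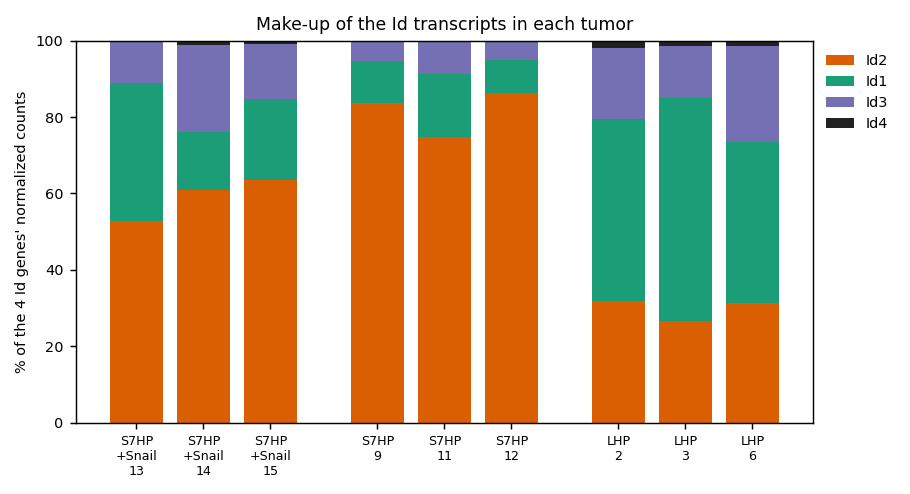
Share of the 4 Id genes' normalized counts (percent) held by each gene, 1 bar per tumor. Id2 holds 52.7% to 63.6% in S7HP+Snail, 74.7% to 86.4% in S7HP and 26.7% to 31.8% in LHP.

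Of the BMP ligand genes, Bmp2 fell in S7HP against LHP and Bmp4 rose in S7HP+Snail against LHP. Bmp2 (chromosome 2, 133552159 to 133562885), a ligand that liver endothelial cells make in normal tissue, was at 8.57, 11.18 and 10.25 in S7HP+Snail, at 7.62, 6.59 and 8.38 in S7HP, and at 10.26, 10.52 and 9.41 in LHP. Every S7HP tumor was below every tumor of the other 2 groups, with tumor 13 close above. Bmp2 fell by 2.53 ± 0.66 in S7HP against LHP, 5.79-fold (limma, Benjamini-Hochberg adjusted p = 0.0266). That call did not survive leaving out S7HP tumor 9 or 11 or LHP tumor 2 or 3 (adjusted p = 0.0739, 0.0887, 0.0778 and 0.0943). With Snail added, Bmp2 was at 2.47 ± 0.66 relative to S7HP, higher in 3 of 3 tumors, and did not pass (adjusted p = 0.0882). Without tumor 13 this difference was 3.19 ± 0.55 and passed (adjusted p = 0.0242).

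Bmp4 (chromosome 14, 46383520 to 46390669), a ligand that mesenchymal cells supply to the embryonic liver, was low in LHP, at 17.22 to 26.44 normalized counts. Its values were 6.16, 10.38 and 8.84 in S7HP+Snail, 6.73, 7.87 and 7.28 in S7HP, and 4.78, 4.19 and 4.72 in LHP. All 6 tumors with the Smad7 construct were above all LHP tumors, and S7HP+Snail spanned more than 4 log2 units, with tumor 13 lowest. Bmp4 rose in S7HP+Snail against LHP by 3.89 ± 0.87, 14.9-fold on the log2(normalized count + 1) scale (limma, Benjamini-Hochberg adjusted p = 0.0308). The call was lost without any 1 LHP tumor or S7HP+Snail tumor 15 and when only these 6 tumors were fitted, at adjusted p from 0.0674 to 0.11. The difference of S7HP from LHP, 2.73 ± 0.87, did not pass (adjusted p = 0.0552). It passed without S7HP+Snail tumor 13 or 14 (0.00658 and 0.0153), with the 6 compared tumors alone (0.00343) and with array weights (0.0209).

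The gene Gm15217 lies tail to tail with Bmp4 on the other strand and overlaps its 3′ end, and the sources used here do not say whether counting used strand. Gm15217 was at 2.35, 8.12 and 7.61 in S7HP+Snail, 5.08, 6.29 and 5.62 in S7HP, and 2.94, 1.83 and 3.27 in LHP. It was below Bmp4 in each of the 9 tumors and was highest in the same pair, tumors 14 and 15. The part of either gene in the other's value was not tested.

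Of the summed counts of Bmp2 and Bmp4, Bmp4 held 15.7%, 36.5% and 27.3% in S7HP+Snail, 35%, 70.9% and 31.8% in S7HP, and 2.12%, 1.16% and 3.62% in LHP. The LHP tumors were below all others in this share. The mean share was 26.5% ± 10.4 in S7HP+Snail, 45.9% ± 21.7 in S7HP and 2.3% ± 1.24 in LHP (SD, n = 3 each). The exact two-sided permutation p was 0.1 for each group with the Smad7 construct against LHP, the smallest possible, and 0.3 for S7HP+Snail against S7HP.

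**Figure D3:**
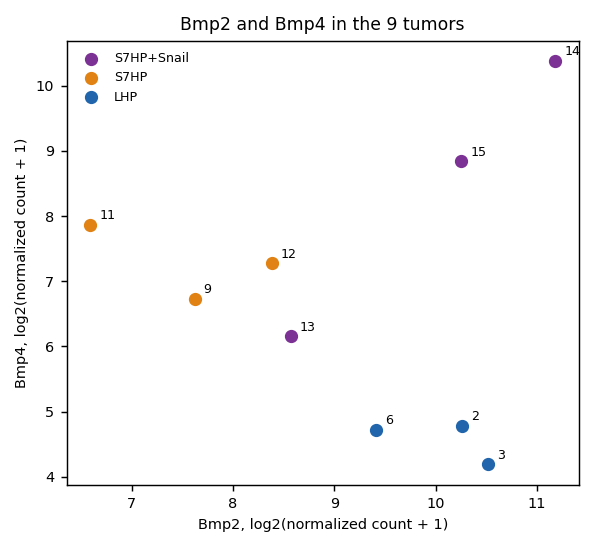
Log2(normalized count + 1) of Bmp2 (horizontal) and Bmp4 (vertical), 1 point per tumor, labelled by its number. S7HP+Snail tumors 14 and 15 are high in both genes, S7HP tumors have Bmp2 at 6.59 to 8.38 with Bmp4 at 6.73 to 7.87, and LHP tumors have Bmp2 at 9.41 to 10.52 with Bmp4 at 4.19 to 4.78.

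Among the receptors, Acvr1 changed in both groups with the Smad7 construct. Acvr1 (chromosome 2, 58388644 to 58567157), which encodes the type I receptor ALK2, was at 9.35, 9.53 and 10.23 in S7HP+Snail, 8.99, 9.68 and 9.13 in S7HP, and 11.10, 11.63 and 11.18 in LHP. All 6 tumors with the construct were below all 3 LHP tumors. It fell by 2.03 ± 0.30 in S7HP against LHP, 4.09-fold (limma, Benjamini-Hochberg adjusted p = 0.00249), and by 1.60 in S7HP+Snail against LHP, 3.03-fold (adjusted p = 0.0157). The first call held in all 16 alternatives, and the second was lost without LHP tumor 3 or 6 (adjusted p = 0.0707 and 0.0545). These 2 comparisons share the LHP tumors.

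Bmpr2 (chromosome 1, 59763400 to 59879014), the gene of the main BMP type II receptor, was at 9.54, 9.91 and 9.90 in S7HP+Snail, 9.36, 8.43 and 8.64 in S7HP, and 10.18, 10.35 and 9.89 in LHP. S7HP tumors were the lowest, with no overlap with either other group. Bmpr2 fell by 1.33 ± 0.28 in S7HP against LHP, 2.51-fold (limma, Benjamini-Hochberg adjusted p = 0.0113), in all 16 alternatives. Against S7HP the S7HP+Snail tumors were at 0.97 ± 0.28, higher in 3 of 3, without passing (adjusted p = 0.104).

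Bmpr1a (chromosome 14, 34410734 to 34503341), which encodes the type I receptor ALK3, was at 8.33, 8.33 and 9.09 in S7HP+Snail, 8.93, 8.68 and 8.38 in S7HP, and 8.27, 8.86 and 7.42 in LHP. The 3 groups overlapped. Its difference of S7HP from LHP was 0.48 (95% interval -0.37 to 1.34), which did not pass (limma, Benjamini-Hochberg adjusted p = 0.405) and leaves room for a change of either sign. Within a tumor, Acvr1 exceeded Bmpr1a by 1.02 to 1.19 log2 units in S7HP+Snail, 0.06 to 1 in S7HP and 2.77 to 3.76 in LHP, so the gap between the 2 type I receptor genes was widest in LHP.

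For S7HP+Snail against S7HP, 0 of the 9 genes were called by limma, against 2.3% of all genes tested (1.01% higher and 1.29% lower), and 2 were higher at an unadjusted p under 0.05, Bmp2 and Bmpr2. Those 2 were also the members whose groups did not overlap, against 20.5% of all genes. The median difference was 0.86 over the 9 genes and -0.02 over all genes. For S7HP+Snail against LHP, 2 of 9 were called, Bmp4 higher and Acvr1 lower, against 7.22% of all genes (3.35% higher and 3.87% lower). Groups did not overlap for 3 of 9 members, Id1 being the third, against 30.5% of all genes. Id2 was at -0.96 ± 0.43 in S7HP+Snail against S7HP (95% interval -1.93 to 0.02), which did not pass (limma, Benjamini-Hochberg adjusted p = 0.29).

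**Figure D4:**
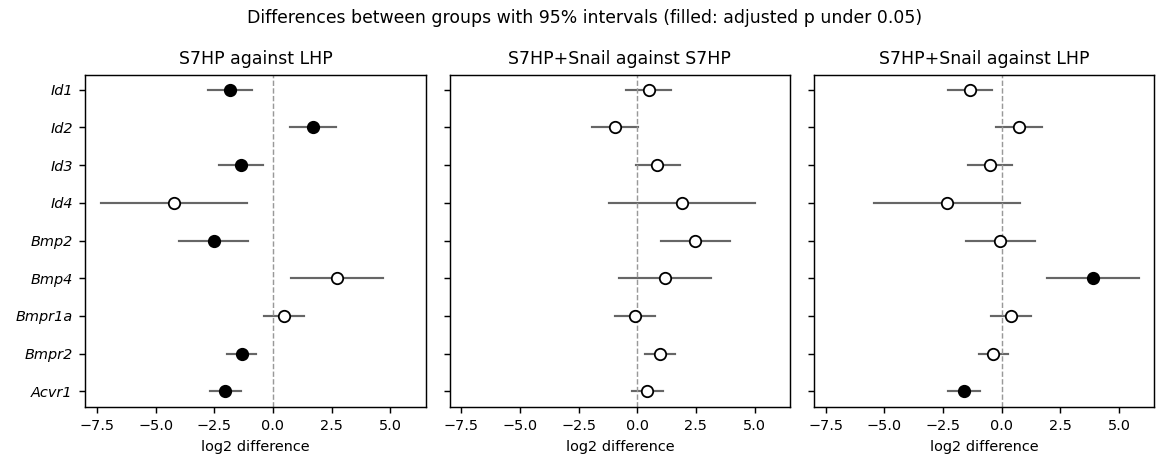
Log2 difference of each gene in the 3 comparisons, with 95% intervals from the limma fit and filled points for an adjusted p under 0.05. The left panel (S7HP against LHP) has 6 filled points, the middle panel (S7HP+Snail against S7HP) has 0 and the right panel (S7HP+Snail against LHP) has 2.

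The rest of the pathway was read from lists of other ligands, receptors, Smads, inhibitors and targets. Over all genes tested, the share called was 19% in S7HP against LHP, 2.3% in S7HP+Snail against S7HP and 7.22% in S7HP+Snail against LHP. Of 11 other BMP ligand genes, 5 passed the filter. Bmp8b, a ligand known from germ cells and brown fat, rose in S7HP against LHP by 6.64 ± 1.04 (limma, Benjamini-Hochberg adjusted p = 0.00366), and 0 fell. It was at 7.77, 5.58 and 3.76 in S7HP+Snail, 8.38, 8.21 and 7.74 in S7HP, and 3.19, 1.22 and 0 in LHP, so the size of the rise rests on values near 0. Its call in S7HP+Snail against LHP (4.23, adjusted p = 0.0406) did not survive 10 of 15 alternatives, at up to 0.134, including the removal of S7HP+Snail tumor 13 or 14, of each S7HP tumor or of LHP tumor 3 or 6. Bmp7, at 6.48, 10.39 and 6.19 in S7HP+Snail, 7.94, 7.97 and 7.44 in S7HP, and 9.03, 10.78 and 10.15 in LHP, was not called. Bmp6, the ligand that sets hepcidin in normal liver, lay between 0 and 2.12 in the 9 tumors and did not pass the filter. Gdf2, which encodes the endothelial ligand BMP9, was between 3.96 and 7.80.

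Of 9 other receptor and co-receptor genes, 2 were called lower and 0 higher in S7HP against LHP, where 19% of all genes were called. At an unadjusted p under 0.05, 4 were lower and 1 was higher. The higher gene was the co-receptor gene Hfe2, which lay above LHP without overlap at 1.38 and was not called (limma, Benjamini-Hochberg adjusted p = 0.0532). Rgmb, a BMP co-receptor gene, was at 9.95, 8.32 and 8.94 in S7HP+Snail, 6.93, 7.71 and 8.15 in S7HP, and 10.17, 9.89 and 9.91 in LHP. In S7HP against LHP, Rgmb fell by 2.40 ± 0.43 (limma, Benjamini-Hochberg adjusted p = 0.00623). Acvrl1, the endothelial type I receptor gene for BMP9 and BMP10, fell by 1.76 ± 0.50 (adjusted p = 0.0373), and this did not survive the removal of S7HP tumor 9 or 11 or LHP tumor 3 or 6, nor a fit without trended and robust variances, at up to 0.131. Bmpr1b, another type I receptor gene, was at 1.47, 8.57 and 2.64 in S7HP+Snail, 0, 5.18 and 3.42 in S7HP, and 7.69, 8.49 and 8.50 in LHP, and was not called (adjusted p = 0.062 for S7HP against LHP). Like Id4 it was near the LHP level in tumor 14, but unlike Id4 it was low in tumor 15. In S7HP+Snail against S7HP and against LHP, 0 of the 9 were called by limma, with 3 higher in the first, and 2 higher and 1 lower in the second, at an unadjusted p under 0.05.

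Of the Smads that carry the BMP signal, Smad9 was at 0 to 2.81 and did not pass the filter, and 0 of the other 3 were called by limma in any comparison. At an unadjusted p under 0.05, 1 was lower in S7HP against LHP and 1 was higher in S7HP+Snail against S7HP. Smad5 was the most abundant of them, at 12.23, 14.45 and 11.99 in S7HP+Snail, 10.83, 10.67 and 10.58 in S7HP, and 12.25, 12.37 and 11.73 in LHP, with S7HP below both other groups (S7HP against LHP -1.42, limma Benjamini-Hochberg adjusted p = 0.0969). Smad1 lay between 8.31 and 9.68, and Smad4, the shared partner, between 8.83 and 9.83.

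Of 8 genes for inhibitory Smads and intracellular BMP inhibitors, 3 fell and 0 rose in S7HP against LHP. Of all genes, 9.54% were called lower and 9.47% higher there. Smad7 fell by 3.55 ± 0.38 (limma, Benjamini-Hochberg adjusted p = 0.000691), the corepressor gene Skil by 2.48 ± 0.22 (0.000433) and its relative Ski by 1.52 ± 0.27 (0.00627). These calls held in all 16 alternatives. Smad7 and Skil were also lower in S7HP+Snail against LHP, where Bambi, a decoy receptor gene, rose by 1.97 ± 0.41 (adjusted p = 0.0244). Bambi was at 7.43, 8.31 and 8.96 in S7HP+Snail, 7.32, 6.48 and 7.03 in S7HP, and 6.13, 6.48 and 6.19 in LHP, and its call was lost without any 1 LHP tumor or S7HP+Snail tumor 15, at up to 0.0868. Smad6, the inhibitory Smad that acts on the BMP branch, was between 5.18 and 6.50 in all 9 tumors and was not called.

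Of 14 secreted antagonist genes, 8 passed the filter. In S7HP against LHP, 1 rose and 2 fell, where 19% of all genes were called. Grem1, which encodes the BMP antagonist gremlin, was at 3.29, 0 and 4.49 in S7HP+Snail, 2.12, 2.98 and 0.42 in S7HP, and 8.01, 7.93 and 7.68 in LHP. The LHP tumors were far above all others. Against LHP, Grem1 fell by 6.04 ± 1.11 with S7HP (limma, Benjamini-Hochberg adjusted p = 0.00691). With S7HP+Snail it fell by 5.28 ± 1.11 (adjusted p = 0.0247), a call that was lost without any 1 LHP tumor, at up to 0.0906. Chordin, Chrd, which binds BMP2 and BMP4, was higher in both groups with the construct, at 6.42, 7.44 and 8.51 in S7HP+Snail, 7.84, 6.32 and 6.93 in S7HP, and 4.97, 4.86 and 4.78 in LHP. It rose by 2.16 ± 0.56 in S7HP (0.0252) and by 2.59 ± 0.56 in S7HP+Snail (0.0271) against LHP. The first call was lost without any 1 LHP tumor or S7HP tumor 9 or 12 and the second without any 1 LHP tumor or S7HP+Snail tumor 15, at up to 0.0908.

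Fstl1, a follistatin-like glycoprotein gene that binds BMP4, was the antagonist called between S7HP+Snail and S7HP. It was at 12.37, 12.45 and 12.01 in S7HP+Snail, 9.94, 8.96 and 10.33 in S7HP, and 12.64, 13.15 and 13.11 in LHP. The S7HP tumors were the lowest, with no overlap. It fell by 3.22 ± 0.34 in S7HP against LHP (limma, Benjamini-Hochberg adjusted p = 0.000659) and was higher by 2.53 ± 0.34 in S7HP+Snail against S7HP (0.0077), in all 16 alternatives for each. The 2 comparisons share the S7HP tumors. Noggin, Nog, lay between 0 and 4.16 and did not pass the filter.

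Of 12 BMP target genes other than Id, 10 passed the filter, and in S7HP against LHP 5 fell and 0 rose, with a median of -2.37 against 0.02 over all genes. Of all genes tested, 9.54% were called lower and 9.47% higher. The 5 were Smad7, the hepcidin gene Hamp, the Notch and BMP target Hey1, and the transcription factor genes Gata2 and Runx2. Smad7 is also the gene of the construct, and whether construct tags are counted at its symbol is not given. Hamp was at 7.28, 9.04 and 7.01 in S7HP+Snail, 5.21, 7.39 and 5.43 in S7HP, and 9.52, 10.11 and 9.59 in LHP, with all LHP tumors highest. Against LHP it fell by 3.73 ± 0.65 with S7HP (limma, Benjamini-Hochberg adjusted p = 0.00599), in all 16 alternatives, although its near-identical copy Hamp2 may share its reads. Runx2 fell by 1.76 ± 0.26 (0.00251), Hey1 by 3.33 ± 0.78 (0.0174) and Gata2 by 2.57 ± 0.58 (0.0145). The call of Hey1 was lost without LHP tumor 3 or S7HP tumor 11 and that of Gata2 without LHP tumor 2 or 3, at up to 0.0575. In S7HP+Snail against LHP, 1 of the 10 rose, Bambi, and 2 fell, Smad7 and Runx2, the last call not surviving 11 of 16 alternatives, at up to 0.14, including the removal of each S7HP+Snail tumor, each LHP tumor, or S7HP tumor 11 or 12. Against S7HP, 0 were called by limma, with 4 higher at an unadjusted p under 0.05. Smad6, Smad7, Smad9 and Bambi stand in 2 of these lists, and Eng stands in the receptor list and among the endothelial markers.

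Among the E-protein partners of Id, Tcf4 was at 13.08, 14.81 and 12.93 in S7HP+Snail, 11.13, 10.47 and 10.99 in S7HP, and 12.73, 12.75 and 12.79 in LHP. It fell by 1.89 ± 0.44 in S7HP against LHP (limma, Benjamini-Hochberg adjusted p = 0.017) and was higher by 2.74 ± 0.44 in S7HP+Snail against S7HP (0.0178). The first did not survive the removal of S7HP tumor 11 or LHP tumor 3 or 6, the second was lost without S7HP tumor 11 or 12 or with the 6 compared tumors alone, at up to 0.0853. Tcf3, between 11.05 and 11.89, and Tcf12, between 11.30 and 13.32, were not called. In S7HP+Snail against S7HP, Tcf12 was at 0.82 ± 0.37 (limma, Benjamini-Hochberg adjusted p = 0.281), and the difference between these genes was not tested. Of the 7 genes in this list of partners and regulators, 6 passed the filter, and Tcf4 was the member called.

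**Figure D5:**
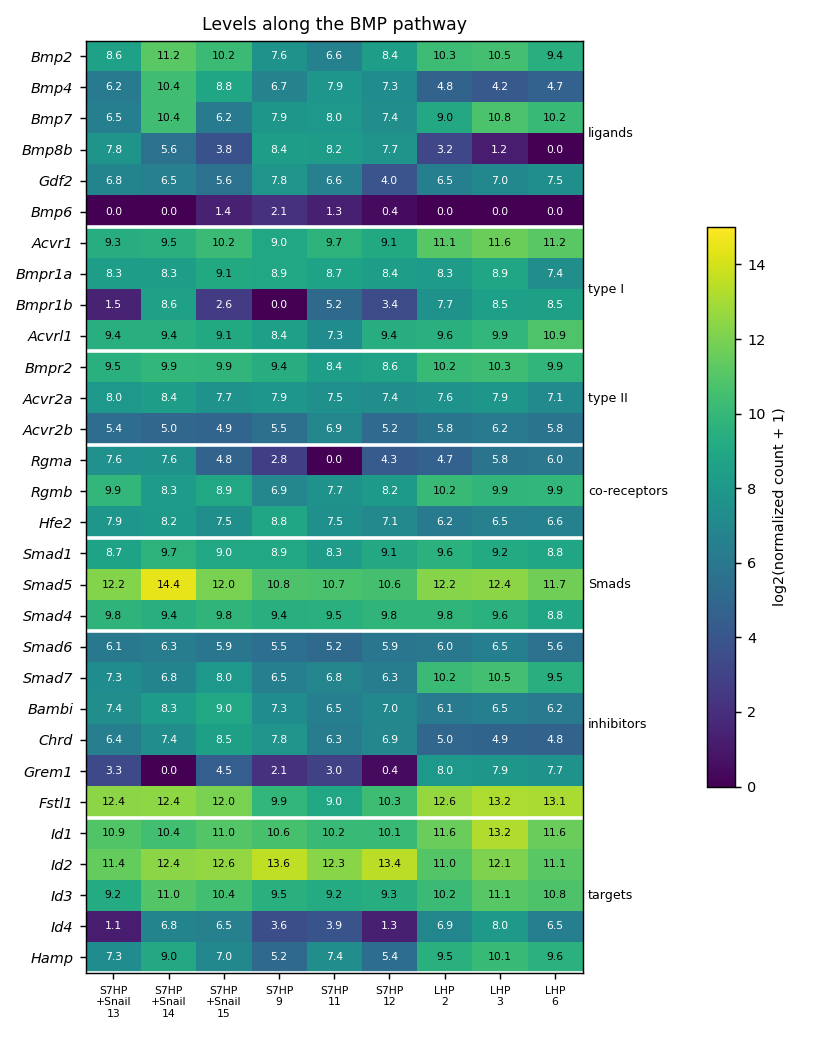
Log2(normalized count + 1) in each tumor (columns, in their groups) for genes along the BMP pathway (rows, by role), with the value printed in each cell. Grem1, Smad7 and Acvr1 are highest in the 3 LHP tumors, Fstl1 is lowest in the 3 S7HP tumors, and Bmp4 is highest in S7HP+Snail tumors 14 and 15.

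S7HP+Snail tumor 13 was lower than tumors 14 and 15 for Id2, Id3, Id4, Bmp2, Bmp4, Bmpr2 and Acvr1, though the gaps were small for Bmpr2 and Acvr1. For Id1 it lay between them. Other genes set tumor 14 apart. Bmp7 was at 10.39 in tumor 14, against 6.48 in tumor 13 and 6.19 in tumor 15. Bmpr1b was at 8.57 in tumor 14, against 1.47 in tumor 13 and 2.64 in tumor 15. The Snai1 level of tumor 13, 8.53, was the highest of the 3, with tumor 15 close below at 8.47. The stellate cell and fibroblast sum was highest in tumor 13 (21400, against 14500 in each of the other two).

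Genes were also ranked by how closely their values, centred on their own mean, followed each called Id gene over the 9 tumors, measured as the root mean square difference on the log2 scale. Nearest to Id1 were Rai14 and Sema6d (0.31 each) and Myh9, the non-muscle myosin heavy chain gene (0.34), where Id1 itself varied by 0.92 around its mean. Nearest to Id2 were the hexose-6-phosphate dehydrogenase gene H6pd (0.25), Itm2c (0.29) and the hepatobiliary transporter gene Abcc3 (0.32), where Id2 varied by 0.86. Nearest to Id3 were the FGF receptor-like gene Fgfrl1 (0.19), Cxx1a (0.25) and the matrix protein gene periostin, Postn (0.25), where Id3 varied by 0.75. The nearest genes were picked out of 14215 and are a description of 9 tumors.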

How the data were processed

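Per the labels' protocols, RNA was taken from 9 liver tumors with Trizol and 500 ng of total RNA went into each QuantSeq 3′ library. Bowtie2, edgeR and the build mm10 are named in the submitters' processing notes, without version or role. What counted the reads, and on which gene models, is not given in the sources used here. The authors deposited log2 values, 1 file per tumor. The values show that these are log2(x + 1) after quantile normalization over the 9 libraries: all files share their highest value, and the unlogged totals run from 19910396 to 19911234. This step removes differences in depth and in overall RNA output, so the depth of each library is not known, and low values are tied. The 3rd lowest value above 0 lay between 1.22 and 2.64 on the log2 scale.

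Genes at 4 or more in at least 3 libraries were kept (14215 genes). All 9 libraries were fitted together with limma 3.58.1 in R 4.3.3, with trended, robust eBayes and 6 residual degrees of freedom. Tests were two-sided, p-values were Benjamini-Hochberg adjusted over all genes, and errors of differences are SE. How many of all genes had an unadjusted p under 0.05 was not counted. Counts of list genes at that level therefore have no share of all genes beside them. The fit was also run on simulated data with known changes. Results were refitted under 16 alternatives, or 15 where a gene did not pass the filter in 1 of them. No count test was run, since the values are not counts. The genes and lists were chosen with earlier results of these data known. The text names the 9 genes, the called genes of the lists, further list members by their role, and the 3 nearest profiles of each called Id gene. Other genes were added after their values were seen: Gm15217 and A330033J07Rik for their overlap, and Bmp7, Gdf2, Nog, Tcf3, Tcf12 and Smad6 for their role. Gene coordinates are from GENCODE mouse release M21 on GRCm38, which is the assembly mm10 names. Sequences are from RefSeq. The level of 1 lymphoid marker is not reported here.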

Additional observations from a re-analysis of the deposited data

How the results depend on the processing

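Leaving out 1 tumor moved the number of genes called between 1386 and 3154 (S7HP against LHP, 2702 with all tumors), 62 and 445 (S7HP+Snail against S7HP, 327) and 240 and 1045 (S7HP+Snail against LHP, 1026). Of the 9 Id and BMP genes, the number called ran from 3 to 8, 0 to 1 and 0 to 2 in the same order, against 6, 0 and 2. With only the 6 compared tumors fitted, 3396 genes and 8 of the 9 were called in S7HP against LHP, 119 genes and 0 of the 9 were called in S7HP+Snail against S7HP, and 681 genes and 1 of the 9 in S7HP+Snail against LHP. The cause was not tested. In each alternative that gave a value, 3, 7 and 5 of the 9 genes kept their direction and their side of the threshold in the same order of comparisons. There were 16 such alternatives, or 15 for Id4 in S7HP+Snail against S7HP, Gata2 in S7HP against LHP and Bmp8b in S7HP+Snail against LHP. Directions turned only for differences that were not called: leaving out 1 tumor, Bmpr1a ran from -0.33 to 0.05 in S7HP+Snail against S7HP, and in S7HP+Snail against LHP Id3 ran from -0.89 to 0 and Bmp2 from -0.65 to 0.65. The median-of-ratios scaling changed no call of the 9 genes. Its factors were only 0.971 to 1.06, since the values were already quantile-normalized, so it could hardly change a call. No paired analysis was possible because the tumor numbers are not shared between groups. Values near 0 limit the precision for genes such as Id4, Grem1, Bmp8b and Bmpr1b.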
